A study of Mus musculus with 10 samples.

Results

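Beta-catenin, the proteins that destroy it and the DNA-binding factors it works with were followed at the transcript level in progeria-model mouse skin. The set holds 10 genes chosen by name for their roles in the pathway, by a rule that uses no measured value but with earlier results of these data known: Ctnnb1, Ctnnbip1, Lef1, Tcf7, Tcf7l1, Tcf7l2, Axin1, Axin2, Apc and Gsk3b. All 10 were found, at 11 loci of 11290 tested in basal cells and at 11 of 11464 tested in suprabasal cells, because Gsk3b is listed at 2 loci. Keratinocytes of FVB/N mice at postnatal day 4 were sorted by flow cytometry, and RNA was sequenced from 10 samples. Basal cells, which sit on the basement membrane and divide, came as 3 wild type and 2 bitransgenic samples. Suprabasal cells, which have left the membrane and differentiate, came as another 3 wild type and 2 bitransgenic samples. The bitransgenic mice are a model of HGPS (Hutchinson-Gilford progeria) and, by the title of the series, accumulate progerin, a truncated lamin A. The promoter and cell type that drive the transgenes are not given in the sources used here, nor is it said whether each sample is a separate animal, and name stems of samples recur between the layers.

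In the canonical Wnt pathway, a cytoplasmic complex built on the scaffolds axin and APC lets the kinases GSK3 and CK1 mark beta-catenin for ubiquitination and breakdown. A Wnt ligand at the cell surface stops this complex, and beta-catenin that escapes it enters the nucleus, where it turns TCF/LEF proteins from repressors into activators. Beta-catenin also ties E-cadherin to the actin skeleton at adherens junctions, which is one reason why epithelia hold much of it. In skin the pathway is needed to form hair follicles, Lef1 is known for its place in the hair placode and hair matrix, and Tcf7l1 and Tcf7l2 are the factors of follicle stem cells and of the epidermis. Control of the pathway acts in large part on the beta-catenin protein, which transcript levels do not show.

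The levels are the authors' values in FPKM (fragments scaled by transcript length and library size, a unit read from the form of their tables), 1 pooled value per group. No level therefore has an error, and sequencing depth per sample is unknown. Every log2 fold change is bitransgenic over wild type, and ± gives the standard error (SE) implied by the authors' p. A gene is called where the authors' q, their adjusted p, is under 0.05. The sort was checked on its markers: wild type Itga6, an integrin of basal cells, had 241 FPKM in the basal and 106 FPKM in the suprabasal group, and Krt10, made by differentiating cells, had 2319 and 6574 FPKM. In bitransgenic cells Itga6 had 220 and 85.1 FPKM and Krt10 1601 and 2354 FPKM, a suprabasal over basal ratio for Krt10 of 1.47 against 2.83 in wild type. Itga6 and Krt10 do not show how many cells other than keratinocytes each group held. The Xist locus, transcribed from the inactive X of females, stood at 0.258 FPKM in basal wild type and 108 FPKM in basal bitransgenic cells, and at 0.236 and 103 FPKM in suprabasal cells. The Y-linked gene Eif2s3y stood at 35.2 and 23.0 FPKM in basal and at 38.9 and 28.6 FPKM in suprabasal cells, so Xist and Y-linked transcripts were both present in the bitransgenic pools. With Xist so unequal, sex and genotype cannot be told apart in any comparison below.

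The start regions of a few members are shown first, because Lef1 was the 1 member that was called and because TCF/LEF proteins bind short DNA words that can be looked for in them. Each line holds the 250 bases before a transcription start from RefSeq (build GRCm38.p6), 5′ to 3′ on the plus strand of the gene, with any match in capitals. The words searched, on both strands, were CTTTGAA or CTTTGAT, and their relatives CTTTGTA or else CTTTGTT. Lef1 has 4 RefSeq starts, of which the first (chr3:131110047-131110296) and an internal one (chr3:131156044-131156293) are printed. The Tcf7l2 window (chr19:55895071-55895320) precedes an internal start of that gene, and the Axin2 window (chr11:108920099-108920348) precedes the start of a textbook beta-catenin target.
Lef1, first start: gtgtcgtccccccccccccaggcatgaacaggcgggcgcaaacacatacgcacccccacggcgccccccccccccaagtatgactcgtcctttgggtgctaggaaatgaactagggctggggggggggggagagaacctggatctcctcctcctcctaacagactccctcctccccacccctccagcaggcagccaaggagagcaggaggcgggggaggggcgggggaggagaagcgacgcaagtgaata
Lef1, internal start: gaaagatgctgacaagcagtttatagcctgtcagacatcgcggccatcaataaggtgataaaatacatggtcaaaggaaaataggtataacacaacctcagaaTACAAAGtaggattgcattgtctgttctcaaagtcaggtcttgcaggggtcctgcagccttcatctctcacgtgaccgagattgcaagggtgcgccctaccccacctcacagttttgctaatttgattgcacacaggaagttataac
Tcf7l2, internal start: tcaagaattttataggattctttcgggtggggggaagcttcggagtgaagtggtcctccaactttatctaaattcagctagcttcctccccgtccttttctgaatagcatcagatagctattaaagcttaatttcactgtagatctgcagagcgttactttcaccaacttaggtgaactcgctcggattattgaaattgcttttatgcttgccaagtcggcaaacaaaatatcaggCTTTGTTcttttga
Axin2: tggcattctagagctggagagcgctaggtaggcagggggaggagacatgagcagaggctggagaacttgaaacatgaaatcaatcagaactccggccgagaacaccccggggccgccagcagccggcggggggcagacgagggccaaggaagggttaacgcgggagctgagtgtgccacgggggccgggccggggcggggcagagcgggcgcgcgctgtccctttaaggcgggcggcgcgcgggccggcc

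The internal Lef1 window holds TACAAAG, the reverse complement of CTTTGTA, from position -147 relative to the start, and the Tcf7l2 window holds CTTTGTT from position -14, and neither overlaps another match. These were the only matches in the 15 windows of 8 members taken from the RefSeq table. Windows on chromosome 18, where Apc lies, were left out of the 15 but kept in the count over all starts. Over all 32851 starts in that table, 4874 windows (14.8%) hold 1 of the 4 words, so 2 of 15 is near the share of any start. The printed Axin2 window and the first Lef1 window have no match, which says only that these letters are not in those 250 bases. The first Lef1 window also overlaps an exon of an antisense gene, Gm43352, which lies on the other strand.

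Ctnnb1, which encodes beta-catenin itself, was by far the most abundant member in all 4 groups. Its level was 159 FPKM in basal wild type and 150.3 FPKM in basal bitransgenic cells, and 184 and 205 FPKM in suprabasal cells. Those levels lie above more than 96% of the tested loci of each group. The log2 fold change was -0.08 ± 0.38 in basal cells (authors' q = 0.937) and 0.16 ± 0.38 in suprabasal cells (q = 0.972), and the 95% intervals ran from -0.82 to 0.66 and from -0.60 to 0.91. No difference in Ctnnb1 was called, and the intervals still allow a change of more than 0.5 on the log2 scale either way. Its locus in the tables has the same bounds (chr9:120924455-121277197) as that of Ulk4, a neighbour on the opposite strand.

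Ctnnbip1 encodes ICAT, a small protein that binds beta-catenin and keeps it from TCF/LEF factors. It stood at 12.1 FPKM in basal wild type against 7.26 FPKM in basal bitransgenic cells, and at 9.26 against 12.9 FPKM in suprabasal cells, lower in one layer and higher in the other. Neither difference was called: the log2 fold change was -0.74 ± 0.42 in basal cells (the authors' p = 0.0823, q = 0.466) and 0.47 ± 0.41 in suprabasal cells (q = 0.843). As a ratio of pooled levels, Ctnnb1 over Ctnnbip1 was 13.1 in basal wild type and 20.7 in basal bitransgenic cells, and 19.8 and 15.9 in suprabasal cells.

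Lef1, an HMG-box factor that recruits beta-catenin to DNA, fell in basal bitransgenic cells. Its level was 12.6 FPKM in basal wild type and 3.02 FPKM in basal bitransgenic cells, and 9.48 and 8.86 FPKM in suprabasal cells. In wild type basal cells Lef1 lay at percentile 49.9 of the tested loci and in bitransgenic basal cells at percentile 13.2, while in suprabasal cells it stayed in the middle, at percentiles 40.3 and 40.6. Only the basal bitransgenic group was low, and the other 3 groups lay between 8.86 and 12.6 FPKM.

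The basal difference was 4.19-fold, a log2 fold change of -2.07 ± 0.51 with a 95% interval from -3.06 to -1.07 (the authors' p = 5e-05, q = 0.00858). That p is the smallest the tables give, shared by 44 basal loci, so 0.51 is the largest SE that the p could imply. The deposited test statistic implies a larger SE for Lef1, 0.62. On a scale with a pseudocount of 1 or 5 FPKM added to both levels, the log2 fold change of Lef1 was -1.76 or -1.14. By fold change Lef1 ranked 153rd from the lowest of 9015 single-gene basal loci with at least 5 FPKM in the higher group. In suprabasal cells the log2 fold change was -0.10 ± 0.40 (interval from -0.89 to 0.69, the authors' p = 0.806, q = 0.986), and Lef1 ranked 4479th of 9316. The basal interval excludes 0 and the suprabasal one includes it, and the difference between the layers is tested further on. Because these are bulk RNA samples of sorted cells, fewer cells that transcribe Lef1 and less Lef1 RNA in each such cell cannot be told apart.

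Tcf7l1, a factor that acts mainly as a repressor and marks follicle stem cells, had the same order of basal levels. It stood at 12.1 FPKM in basal wild type and 5.79 FPKM in basal bitransgenic cells, and at 17.98 and 20.2 FPKM in suprabasal cells. With a log2 fold change of -1.06 ± 0.97 in basal cells (interval from -2.97 to 0.85, authors' q = 0.614) it was not called, and its SE was nearly as large as the fold change. The suprabasal value was 0.17 ± 0.53 (q = 0.981).

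Tcf7l2, the most abundant of the 4 factors, differed little between the genotypes. Its levels were 20.4 FPKM in basal wild type and 18.1 FPKM in basal bitransgenic cells, and 38.1 and 40.0 FPKM in suprabasal cells. The log2 fold changes were -0.17 ± 0.31 (authors' q = 0.826) and 0.07 ± 0.38 (q = 0.991), with a basal interval from -0.78 to 0.44 that leaves out a fall of the size seen for Lef1.

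With 1 locus taken per gene, Tcf7, best known from T cells, had the lowest level of the set in both wild type groups and the widest errors in both layers. It stood at 4.43 FPKM in basal wild type and 4.51 FPKM in basal bitransgenic cells, and at 6.41 and 13.6 FPKM in suprabasal cells. The suprabasal log2 fold change of 1.08 ± 1.20 (authors' q = 0.891) and the basal one of 0.03 ± 1.47 (q = 0.994) were not called, and the basal interval, from -2.85 to 2.90, allows almost any change. The locus that carries the name Tcf7 spans 336298 bases, against 30644 bases for the annotated gene. Another 6 basal loci have those bounds, among them Skp1a and Ppp2ca, and the long noncoding gene Gm26551 lies on the same strand within them, so reads could have been shared out between these genes in ways the tables do not show.

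**Figure D1:**
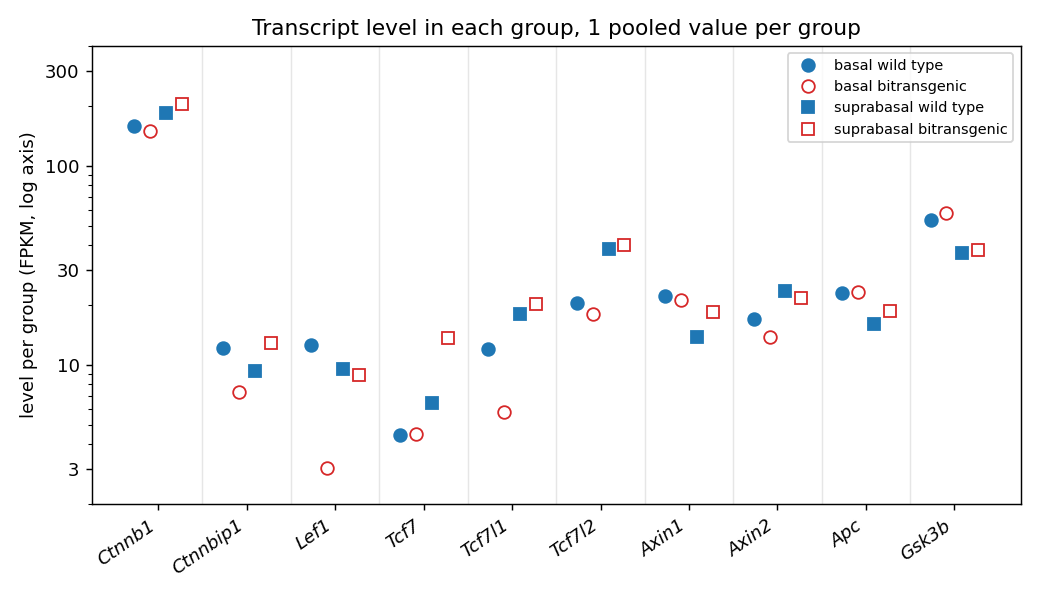
Level of each member in FPKM on a log axis, 1 pooled value per group, with circles for basal and squares for suprabasal cells, filled for wild type and open for bitransgenic. The open circle of Lef1 at 3.02 FPKM stands apart from its other 3 points, while the 4 points of Ctnnb1, Apc and Axin2 lie close together.

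Added up, the 4 TCF/LEF genes came to 49.5 FPKM in basal wild type and 31.4 FPKM in basal bitransgenic cells, a ratio of 0.634. In suprabasal cells the sums were 72.0 and 82.6 FPKM, a ratio of 1.15. Lef1 made up 25.5% of the basal wild type sum and 9.60% of the basal bitransgenic sum, whereas the share of Tcf7l2 was 41.2% and 57.6%. Tcf7l1 held 24.4% and 18.4% of those basal sums, and Tcf7 8.95% and 14.4%. In suprabasal cells Tcf7l2 held 52.9% and 48.4%, and Lef1 13.2% and 10.7%. So the basal bitransgenic pool was smaller and made mostly of Tcf7l2 transcripts, and of the single genes behind it only the fall of Lef1 was called. The level of Ctnnb1 over the TCF/LEF sum was 3.21 in basal wild type and 4.79 in basal bitransgenic cells, against 2.55 and 2.48 in suprabasal cells. These sums and ratios come from pooled levels and carry no error.

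**Figure D2:**
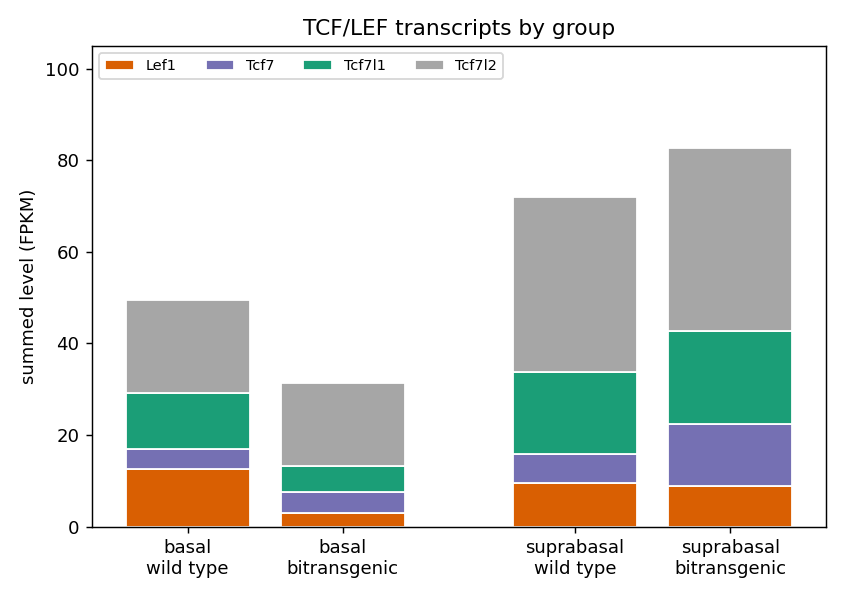
Stacked bars of the summed FPKM of Lef1, Tcf7, Tcf7l1 and Tcf7l2 in each of the 4 groups, from 0. The basal bitransgenic bar is the shortest at 31.4 FPKM and its Lef1 segment the smallest, and in every bar Tcf7l2 is the largest segment.

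The destruction complex genes stood at much the same levels in wild type and bitransgenic cells. Gsk3b, the kinase that phosphorylates beta-catenin, was the most abundant of them, with 53.1 FPKM in basal wild type and 57.9 FPKM in basal bitransgenic cells and 36.4 and 37.6 FPKM in suprabasal cells. Apc, the scaffold lost in many colon tumours, stood at 22.9 and 23.2 FPKM in basal and at 16.0 and 18.7 FPKM in suprabasal cells. Axin1, the constitutive scaffold that limits assembly of the complex, stood at 22.2 and 21.2 FPKM in basal and at 13.8 and 18.5 FPKM in suprabasal cells. None of these 3 genes was called in either layer. The basal log2 fold changes were 0.12 ± 0.35 for Gsk3b, 0.02 ± 0.30 for Apc and -0.06 ± 0.53 for Axin1, and the smallest q in the authors' deposited tables for the 3 genes was 0.840, that of Axin1 in suprabasal cells (0.42 ± 0.35). The second Gsk3b locus has the same bounds as the first (chr16:38089001-38246084) and low levels, 4.24 and 2.60 FPKM in basal and 6.62 and 4.91 FPKM in suprabasal cells. The tables give no strand for it, and the first locus is used wherever 1 value stands for Gsk3b.

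Axin2, a scaffold of the same complex, is itself a transcriptional target of beta-catenin and TCF/LEF and is widely read as a gauge of the pathway. Its level was 17.0 FPKM in basal wild type and 13.7 FPKM in basal bitransgenic cells, and 23.5 and 21.6 FPKM in suprabasal cells. It was slightly lower in the bitransgenic group of each layer, with log2 fold changes of -0.30 ± 0.33 (interval from -0.95 to 0.34, authors' q = 0.686) and -0.12 ± 0.38 (interval from -0.88 to 0.63, q = 0.981), and neither was called. The basal interval for Axin2 lies wholly above the point value for Lef1. Set against its constitutive relative, the pooled Axin2 over Axin1 ratio was 0.765 and 0.648 in basal and 1.70 and 1.17 in suprabasal cells. The 4 genes of the complex summed to 115 FPKM in basal wild type and 116 FPKM in basal bitransgenic cells, and to 89.8 and 96.3 FPKM in suprabasal cells.

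**Figure D3:**
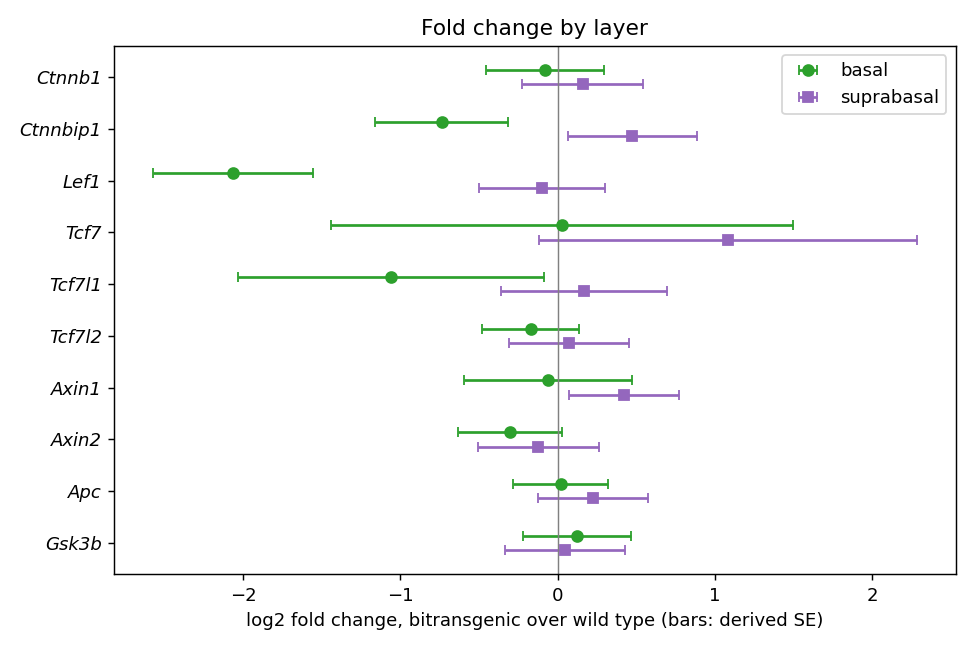
Log2 fold change, bitransgenic over wild type, of each member in basal cells (green circles) and suprabasal cells (purple squares), with bars of 1 derived SE. The basal value of Lef1, at -2.07, lies farthest from 0, and the bars of Tcf7 and of basal Tcf7l1 are the widest.

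Counted over the set, 1 of 10 members was called lower in basal bitransgenic cells and 0 of 10 higher, where 1.65% of all basal loci were called and 1.39% were called lower. A share of 1 in 10 is above that background, and it rests on Lef1 alone. Basal fold changes were below 0 for 7 of 10 members, against 60.3% of all loci. Their median, with Lef1 included, was -0.13, close to the -0.12 over all loci. Single members ran from -2.07 for Lef1, -1.06 for Tcf7l1 and -0.74 for Ctnnbip1 up to 0.12 for Gsk3b. In suprabasal cells 0 of 10 members were called by the authors' test, where 0.471% of all loci were called and 0.419% were called lower. Of the 10, 0 had an unadjusted p under 0.05, against 815 of all 11464 loci. There, 2 of 10 members were below 0, against 56.6% of all loci, with a median of 0.16 against -0.08.

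Whether the genotype difference itself differed between the layers was tested for each locus with a two-sided Wald test of the log2 fold change in suprabasal cells minus that in basal cells. Lef1 had the largest difference of the set, 1.97 ± 0.65 with a 95% interval from 0.69 to 3.24. Its unadjusted p was 0.00245, and after Benjamini-Hochberg adjustment over 10583 loci the p was 0.703, so the fall of Lef1 in basal cells was not shown to be particular to that layer. Ctnnbip1 had 1.21 ± 0.59 (interval from 0.05 to 2.37, an unadjusted p of 0.0404 and an adjusted p of 1). Tcf7l1, at 1.23 ± 1.11, and Tcf7, at 1.06 ± 1.90, had point values of similar size with wider errors. For the other 6 members the difference lay between -0.08 (Gsk3b) and 0.48 (Axin1). In this test 0 of 10 members passed, where 4 of 10583 loci (0.0378%) did, and 2 of 10 members had an unadjusted p under 0.05, against 3.08% of all loci. The difference was above 0 for 9 of 10 members, against 49.3% of all loci, and its median was 0.36 against -0.01. The layers enter this test as independent although sample names recur in both.

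Between the layers of 1 genotype the levels can only be set side by side, since each table was normalized on its own and holds no replicates. In wild type cells Tcf7l2 had the highest suprabasal over basal ratio of the set, 1.87, followed by Tcf7l1 at 1.49, Tcf7 at 1.45, Axin2 at 1.39 and Ctnnb1 at 1.16. Ctnnbip1 at 0.765, Lef1 at 0.751, Apc at 0.698, Gsk3b at 0.685 and Axin1 at 0.623 had ratios below 1. The median ratio over 10359 loci was 0.975. In wild type, then, the 3 genes named Tcf had ratios above 1 and the 3 constitutive genes of the destruction complex had ratios below 1. In bitransgenic cells the ratios of 3 TCF/LEF genes were about 3 or more: Tcf7l1 had 3.49, Tcf7 3.01 and Lef1 2.94. The other members ran from 0.649 (Gsk3b) to 2.21 (Tcf7l2), and 7 of 10 were above 1, against 5 of 10 in wild type. Lef1 and Ctnnbip1 were the members on different sides of 1 in the 2 genotypes, and Ctnnbip1 had 1.77 in bitransgenic cells. The layers also differed in markers of other cells, whose lists are read further on. In wild type, the melanocyte markers summed to 9.20 FPKM over 4 basal loci but 2505 FPKM over 13 suprabasal loci. Fibroblast and dermal papilla markers summed to 259 FPKM over 10 basal loci and 522 FPKM over 15 suprabasal loci. Of these wild type sums, Vim alone held 2.32 FPKM in basal and 316 FPKM in suprabasal cells. T cell and leukocyte markers summed to 41.9 FPKM over 4 basal and 33.3 FPKM over 5 suprabasal loci. How far such cells shaped the ratios of the members was not tested.

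The other genes of the pathway inside the cell were read from 5 lists chosen by function. In basal cells they came to 124 loci, of which 1 was called. Of the 124, 83 (66.9%) were below 0, with a median of -0.18, against 60.3% and -0.12 over all loci. An unadjusted p under 0.05 was held by 9 of the 124 (9 lower and 0 higher). In suprabasal cells the lists came to 130 loci, of which 0 were called by the authors' test. Of the 130, 77 (59.2%) were below 0, with a median of -0.11, against 56.6% and -0.08 over all loci. An unadjusted p under 0.05 was held by 10 of the 130 (7 lower and 3 higher). Over all loci, 867 of 11290 in basal and 815 of 11464 in suprabasal cells had such a p. Of those 867 basal loci 701 were lower and 166 higher, and of the 815 suprabasal loci 592 were lower and 223 higher. Called shares of 1 in 124 and 0 in 130 are below or near the background of each table. Among 29 basal loci of destruction complex partners 0 were called and 1 had an unadjusted p under 0.05, and their median of -0.14 matched that of all loci. The outermost of them were Siah1a, a ubiquitin ligase, at 8.51 and 4.06 FPKM (-1.07 ± 0.98), and Tnks2, a tankyrase that promotes axin breakdown, at 39.6 and 56.3 FPKM (0.51 ± 0.35). In suprabasal cells 0 of 27 were called and 1 had an unadjusted p under 0.05. There Ppp2r5a, a subunit of the phosphatase PP2A, stood at 13.4 and 7.17 FPKM (-0.90 ± 0.40, authors' q = 0.342) and the tankyrase Tnks at 9.14 and 12.8 FPKM (0.49 ± 0.35).

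Dishevelled genes and pathway kinases had 0 of 18 basal and 0 of 23 suprabasal loci called, with 1 and 2 at an unadjusted p under 0.05. Dvl2, 1 of the Dishevelled proteins that carry the signal from the receptor to axin, stood at 9.93 and 3.87 FPKM in basal cells (-1.36 ± 0.63, authors' q = 0.281), and Csnk2a2, a catalytic subunit of CK2, at 16.8 and 22.1 FPKM. In suprabasal cells Frat2, a GSK3-binding protein, stood at 7.39 and 3.03 FPKM (-1.28 ± 0.54, q = 0.265) and the kinase Cdk14 at 3.88 and 6.89 FPKM. Nuclear cofactors and repressors had 0 of 38 loci called in each layer, with 3 basal and 0 suprabasal loci at an unadjusted p under 0.05. Of the 38 basal loci, 29 were below 0, with a median of -0.31. Tle2, a Groucho corepressor that TCF/LEF proteins recruit in the absence of beta-catenin, stood at 7.76 and 2.58 FPKM in basal cells (-1.59 ± 0.81, q = 0.393), and Tbl1x, a subunit of corepressor complexes, at 28.8 and 39.3 FPKM. Its relative Tbl1xr1 stood at 11.6 and 7.19 FPKM in suprabasal cells, and the histone demethylase gene Kdm2a at 38.2 and 54.3 FPKM.

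The list drawn up for the adherens junction, the other place where beta-catenin works, had 0 of 22 loci called in each layer. At an unadjusted p under 0.05 it had 2 lower basal and 2 higher suprabasal loci. The medians of the list were -0.05 and 0.11. Ctnnbl1, listed here without a junction role shown by these data, stood at 26.0 and 12.2 FPKM in basal cells (-1.09 ± 0.91, authors' q = 0.571). The nectin gene Pvrl4 stood at 4.71 and 7.35 FPKM there (0.64 ± 0.37, q = 0.466). The catenin gene Arvcf stood at 6.89 and 3.20 FPKM and the receptor phosphatase Ptprj at 16.4 and 30.6 FPKM in suprabasal cells (0.90 ± 0.39, authors' q = 0.324).

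Genes listed as targets of TCF and beta-catenin had the lowest medians of the 5 lists in both layers. The medians were -0.42 over 18 basal and -0.39 over 22 suprabasal loci, against -0.12 and -0.08 over all loci. Of the 18 basal loci 1 was called, where 1.65% of all basal loci were. An unadjusted p under 0.05 was held by 2 of the 18 (2 lower and 0 higher), against 867 of all 11290 loci. The 1 called gene was Cyr61, a matricellular protein that is also a target of other pathways. It stood at 206 FPKM in basal wild type and 55.1 FPKM in basal bitransgenic cells (-1.90 ± 0.47, authors' q = 0.00858) and at 121 and 66.7 FPKM in suprabasal cells (-0.86 ± 0.39, q = 0.363). The highest basal value was that of Cd44, a hyaluronan receptor, at 231 and 292 FPKM (0.34 ± 0.42). In suprabasal cells 0 of 22 targets were called and 5 had an unadjusted p under 0.05, 4 lower and 1 higher, against 815 of all 11464 loci. Fosl1, an AP-1 subunit, stood there at 62.7 and 26.97 FPKM (-1.22 ± 0.40, q = 0.141) and the adhesion gene Nrcam at 8.48 and 17.5 FPKM (1.05 ± 0.38, q = 0.141).

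**Figure D4:**
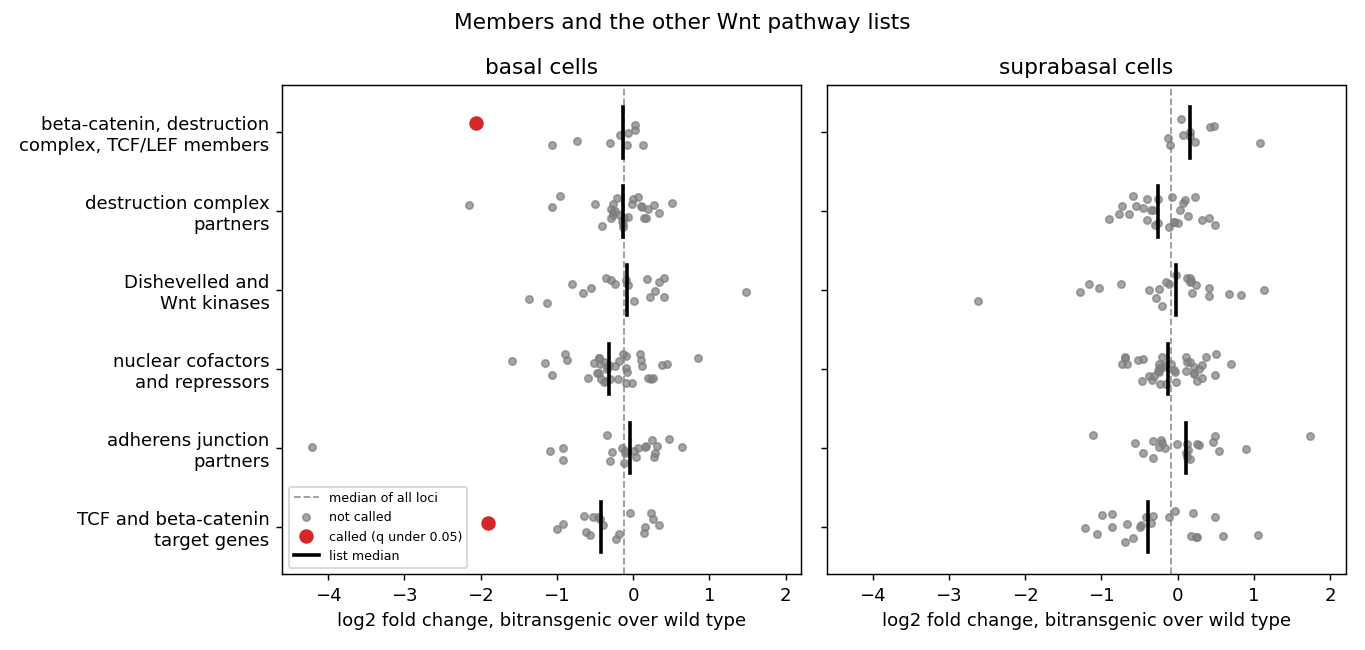
Log2 fold change, bitransgenic over wild type, of each member (1 locus a gene) and of every locus of the 5 other pathway lists, in basal cells (left) and suprabasal cells (right), with a black bar at each list's median and a dashed line at the median of all loci. Lef1 and Cyr61, both in basal cells, are the only called points, in red.

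Since Lef1 is also transcribed in hair matrix, dermal papilla and T cells, markers of the other cells a skin sort can hold were read beside its fall. Of 33 hair matrix and precortex markers 11 had a basal locus, and 1, Tchh, was called lower, at 8.54 and 3.48 FPKM, while the single-gene loci of the list summed to 101 FPKM in basal wild type and 72.9 FPKM in basal bitransgenic cells. Of 14 bulge and outer root sheath markers 9 had a basal locus, and Krt15 was called lower, at 1602 and 308 FPKM, with sums of 2956 and 1676 FPKM. The fall of the bulge sum was that of Krt15, as the other 8 loci summed to 1355 and 1368 FPKM. The 8 single-gene hair matrix loci other than Tchh summed to 92.0 and 69.4 FPKM. By locus, 7 of 9 bulge loci were below 0 (median -0.59), with 3 lower and 0 higher at an unadjusted p under 0.05. For the hair matrix list, 10 of 11 loci were below 0 (median -0.84), with 3 lower and 0 higher at such a p. Over all basal loci 60.3% were below 0, with a median of -0.12. Summed over all single-gene basal loci, the levels were 579411 and 473510 FPKM. Of 25 fibroblast and dermal papilla markers 10 had a basal locus, and Col5a2 (4.62 and 0.695 FPKM) and Vcan (10.1 and 2.40 FPKM) were called lower, with sums of 259 and 195 FPKM. Of 29 T cell and leukocyte markers 4 had a basal locus, 0 were called, 1 was higher at an unadjusted p under 0.05, and they summed to 41.9 and 62.0 FPKM. By locus, 2 of these 4 were above 0 and 2 below, with a median of -0.06. Lck, a T cell gene, was among those below 0 (log2 fold change -1.12 ± 1.04, authors' q = 0.619). The T cell gene Cd3e, the leukocyte gene Ptprc, the fibroblast gene Pdgfra and the matrix genes Hoxc13, Msx2 and Shh are not among the loci analysed in either layer. The 4 basal loci of melanocyte markers, of which 0 were called and 0 had an unadjusted p under 0.05, summed to 9.20 and 15.5 FPKM. Of the 2 endothelial and 6 Schwann cell marker loci 0 were called and 0 had an unadjusted p under 0.05. The markers of basal keratinocytes themselves had 14 of 15 loci below 0 in basal cells, with a median of -0.41, and 0 were called by the authors' test while 2 had an unadjusted p under 0.05. The markers of suprabasal keratinocytes had 5 of 15 loci higher and 3 lower at an unadjusted p under 0.05 in basal cells, with Dsc1 called higher (13.7 and 38.1 FPKM) and Lor called lower (17.2 and 3.18 FPKM), and summed to 9331 and 11474 FPKM.

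In suprabasal cells, where Lef1 was not called, 2 of the same follicle markers, Tchh and Krt15, were called lower as well. Tchh stood at 8.19 and 2.35 FPKM, Krt15 at 1025 and 124 FPKM and Postn, the third called follicle gene, at 119 and 38.2 FPKM, and the sums were 99.4 and 65.7 FPKM for the hair matrix list and 3153 and 2528 FPKM for the bulge list. Without Krt15, the 11 other bulge loci summed to 2128 and 2404 FPKM. Of all 12 bulge loci, 8 were below 0 and 4 above, with a median of -0.17 against -0.08 over all loci. At an unadjusted p under 0.05, 3 of them were lower and 0 higher. Corin, a dermal papilla gene, was called higher, at 0.219 and 3.05 FPKM, and the fibroblast list summed to 522 and 715 FPKM. Vim, which was not called, held 316 and 492 FPKM of those sums. By locus, 11 of 15 in the fibroblast list were above 0 and 4 below, with a median of 0.47. At an unadjusted p under 0.05, 3 of the 15 were higher and 0 lower. All 13 melanocyte markers were above 0, with 0 called and 5 at an unadjusted p under 0.05, and they summed to 2505 and 4587 FPKM. Heat shock and immediate early genes, known to be induced when tissue is handled, were lower in the bitransgenic groups of both layers, with 6 of 21 basal loci (among them Fos and Junb) and 5 of 21 suprabasal loci called lower and medians of -0.84 and -1.19. The part of these marker differences, and of the Xist difference, in the Lef1 result was not tested.

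Among 8374 other single-gene loci with at least 5 FPKM in the higher group of both tables, likeness to the 4 group levels of Lef1 was measured by the root mean square difference of log2 levels centred on each gene's mean. Among the closest were Amdhd2 (0.09), Lrrc61 (0.12), Lrsam1 (0.14) and Gm6685 (0.16), where the median locus differed by 0.82. Amdhd2, a deacetylase of amino sugar metabolism, stood at 15.01 and 3.56 FPKM in basal and 11.7 and 12.2 FPKM in suprabasal cells. Lrrc61, a leucine-rich repeat gene, stood at 17.9 and 5.10 FPKM in basal and 13.0 and 12.4 FPKM in suprabasal cells. Neither these 4 genes' basal nor their suprabasal differences were called, and the basal q in the authors' deposited table was 0.466 for each, against 0.00858 for Lef1. With 4 points per gene this likeness is a description only.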

How the data were processed

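RNA of sorted basal and suprabasal keratinocytes was made into strand-specific libraries from 10 ng with an amplifying Nugen kit, per the labels' protocols. TopHat, Cufflinks and mm10 are named, without versions, in the submitters' processing notes. The authors deposited 1 table per layer in the form of a Cuffdiff table, with 1 level per group, read here as FPKM. Their deposited log2 fold changes come with a test statistic (a score) and with a p-value and a q-value computed by the authors. The scaling between libraries is not given in the sources used here.

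Of 11316 basal and 11490 suprabasal loci, 26 in each table had a status other than OK and were left out. Deposited log2 fold changes differed from those recomputed from the levels by at most 4.13e-05. The SE was computed as the absolute log2 fold change over the normal quantile (two-sided) that the deposited p implies, because the deposited statistic was a median 0.631 (basal) and 0.628 (suprabasal) times that quantile. The layer difference was tested with a Wald z-test and Benjamini-Hochberg adjustment over loci tested in both layers. The script was tested on simulated data with independent layers and planted differences far larger than that of any member. That simulation does not show how well differences of the size seen here would be found. Python 3.11.15, pandas 2.3.3, numpy 2.4.6 and scipy 1.17.1 were used.

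The text names every member, each called gene of the 5 pathway lists and, per list and layer, the single-gene locus with the highest and lowest log2 fold change among those with at least 5 FPKM in the higher group. It also names called genes of the marker lists and the 5 loci nearest to Lef1, of which 1 is not reported here. The members and lists were chosen with earlier results of these data known. Alternatives were pseudocounts of 1 and 5 FPKM, a minimum of 5 FPKM, q under 0.01, readjusted p, centred fold changes, merged loci left out, and SEs from the deposited statistic.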

Additional observations from a re-analysis of the deposited data

How the results depend on the processing

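The count of called members stayed at 1 in basal cells and 0 in suprabasal cells under all 5 alternatives run for each, and that of the other pathway genes at 1 and 0. Lef1 remained called in basal cells with p readjusted over all tested loci (0.0128) and with fold changes centred on the median of loci at 1 FPKM or more (0.0481). Its basal log2 fold change was -1.76 and -1.14 with pseudocounts of 1 and 5 FPKM, against -2.07. Centring moved 2 values near 0 to the other side, the basal log2 fold changes of Ctnnb1 (to 0.031) and Axin1 (to 0.047). The median of the members ran from -0.17 to -0.02 in basal and from 0.14 to 0.24 in suprabasal cells. The adjusted p of the layer difference of Lef1 was 0.99997 with SEs from the deposited statistic, 0.822 with at least 5 FPKM and 0.780 with centring. No paired analysis was possible because each group has 1 pooled level, and no replicate could be left out for the same reason. Without levels per sample, neither the spread between replicates nor the weight of any 1 sample in the fall of Lef1 can be given, and low genes such as Tcf7 have intervals too wide to show a change.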
